A study of Homo sapiens with 6 samples.

Results

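Cytochromes P450 are heme enzymes that insert oxygen into drugs, pollutants, steroids, bile acids, vitamins and fatty acids. Most sit in the endoplasmic reticulum and draw electrons from the reductase POR, while a few work in mitochondria with the ferredoxin FDX1. In liver, many members of families 1 to 3 clear foreign compounds. Other members, some of these families among them, make or break down hormones, retinoic acid, vitamin D, lipid mediators and bile acids.

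The family was taken here as all genes whose Entrez identifier maps to a symbol made of CYP, a family number, a letter and a second number, with CYP51A1 left out. That gave 52 genes among the 18030 in the tables. They were measured by mRNA sequencing in 2 groups of 3 libraries of Huh-7, an established line from a human liver cancer. One group carries the genotype label ALKBH5 overexpression (oeALKBH5), and its cells received an ALKBH5 plasmid by electroporation (3 pulses of 1250 V and 20 ms), with RNA taken 60 h later. The other group is labelled Control and WT. Its samples carry the same treatment text, while the series design names parental cells, so it is not known whether the controls were electroporated or given an empty plasmid. Both groups carry the treatment label Untreated, both come from this single line, and no source used here names the promoter of the plasmid. The enzyme ALKBH5 takes the methyl mark off N6-methyladenosine in RNA. The libraries are numbered as biological replicates and no label names a separate culture for each, so p-values cover the spread among these 6 libraries alone, which may be technical.

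The libraries held 18607084 to 18826479 estimated counts in oeALKBH5 and 19265686 to 19378030 in control. ALKBH5 mRNA stood at 169, 133 and 110.4 CPM (counts relative to library size, scaled by the TMM method) in the 3 oeALKBH5 libraries and at 70.5, 74.2 and 75.5 CPM in control. Its log2 fold change was 0.90 (SE 0.177, edgeR adjusted p = 0.0154). With control replicate 2 left out ALKBH5 missed the threshold (adjusted p = 0.0529), and so it did with replicate 3 left out (adjusted p = 0.0589). All 10 hepatocyte markers on a fixed list, such as ALB and AFP, were expressed. All 10 were lower in oeALKBH5 (edgeR adjusted p under 0.05), beside 22.0% of all tested genes. Their summed level ran from 21492 to 23137 CPM against 32888 to 33434 CPM in control. The tables also held 6 of 7 listed endothelial markers, 8 of 9 macrophage and blood markers and all 9 stellate and fibroblast markers. None of those held was at 0 in all 6 libraries, and markers without an entry could not be counted. Endothelial markers summed to 11.6 to 12.4 CPM in oeALKBH5 and 17.5 to 21.3 CPM in control, nearly all of it PECAM1. Macrophage and blood markers summed to 139 to 162 against 146 to 151 CPM, most of it CD68, which many cell types express. Stellate and fibroblast markers summed to 36.7 to 37.1 against 30.2 to 32.8 CPM. COL1A1 and COL1A2 were higher in oeALKBH5, and over the 7 tested markers of this list 2 were called higher and 1 lower. Cholangiocyte markers summed to 260.1 to 289.5 against 275 to 281 CPM. What part these shifts have in the P450 values was not tested.

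Of the 52 P450 genes, 35 were expressed well enough to be tested, which means that they passed edgeR's filter at a minimum count of 10. The other 17 had between 1 and 57 counts summed over the 6 libraries, and none was at 0 in all of them. Only genes with an entry in the tables could be counted. P450 genes without an entry, CYP7A1 among them, are not in the 52, so these counts do not show that every P450 gene was detected. By the stricter measure of an FPKM of at least 1 in 3 libraries, 21 were expressed. FPKM is the authors' level per transcript length and library depth, summed here over the transcripts of a gene. It is the scale on which levels of different genes are compared below.

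CYP3A4, CYP2E1, CYP2A6 and CYP4A11, main drug and fatty acid oxidases of adult hepatocytes, all fell below the filter. CYP3A4 had 6, 1 and 2 counts in oeALKBH5 and 5, 4 and 3 in control. CYP2E1 had 20, 4 and 8 counts in oeALKBH5 against 5, 6 and 7 in control, so 1 library stood above the other 5. Also below the filter were CYP2A7, CYP2A13, CYP3A43, CYP4A22, CYP4B1, CYP4F2, CYP4F8, CYP4F22, CYP4X1, CYP4Z1, CYP7B1, CYP17A1 and CYP46A1. No mean FPKM among these 17 genes exceeded 0.35 in either group.

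CYP1A1 was the most abundant P450 mRNA in both groups, with a mean of 84.7 FPKM in control. CYP27A1 (34.6 ± 1.99), CYP4F12 (27.9 ± 1.55), CYP2S1 (18.4 ± 1.93) and CYP4F3 (15.7 ± 0.121) followed (mean FPKM ± SD in control, n = 3). The ranges of these 5 genes did not overlap in control. Next came CYP26B1 at 8.48, CYP2R1 at 7.32 and CYP2J2 at 5.94 FPKM, again without overlap between neighbours. CYP20A1, CYP26A1, CYP3A5, CYP39A1 and CYP2B6 lay between 5.25 and 4.40 FPKM, and the ranges of neighbours in that order overlapped. In oeALKBH5 CYP26B1 took the fourth place, ahead of CYP4F3 and CYP2S1, whose ranges overlapped each other. CYP26A1 went from the tenth to the thirteenth place.

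**Figure D1:**
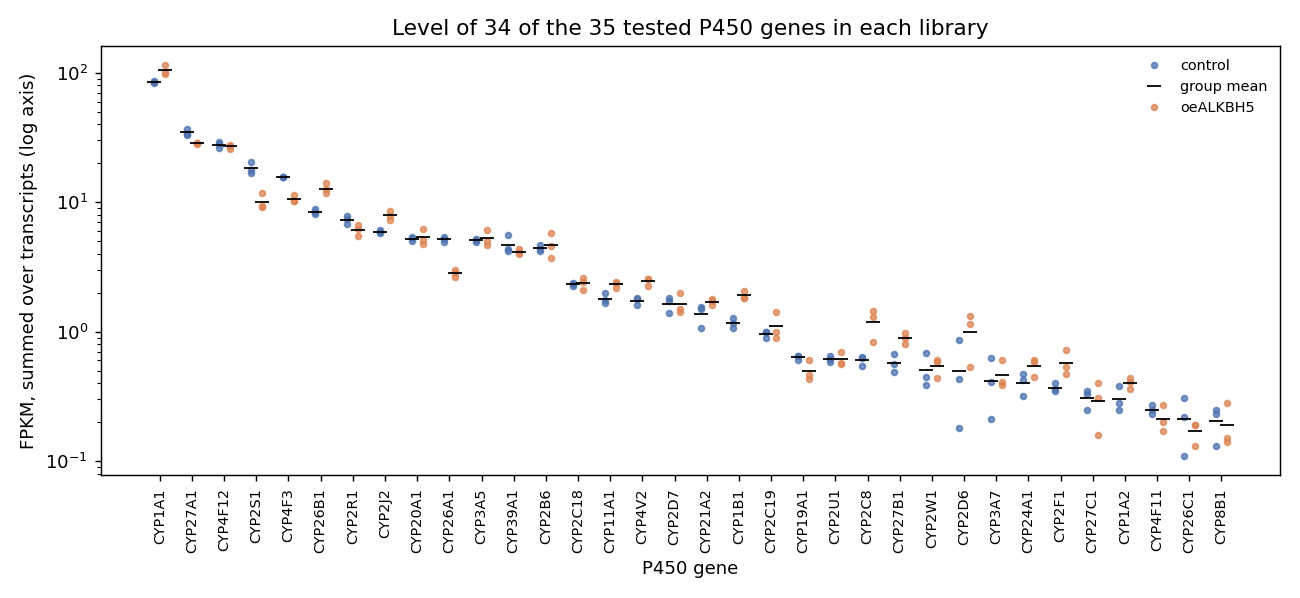
Level of 34 of the 35 tested P450 genes in each library, in FPKM summed over transcripts on a log axis, ordered by the control mean; points are libraries and bars are group means (n = 3). CYP1A1 leads in both groups, and CYP26A1, CYP2S1 and CYP4F3 lie lower in oeALKBH5 while CYP26B1 lies higher.

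Summed over the 52 genes, P450 mRNA reached 268, 254 and 243 FPKM in the oeALKBH5 libraries and 254, 244 and 247 FPKM in control, so the groups overlapped. The makeup of that sum differed. CYP1A1 held 42.5%, 40.1% and 40.2% of it in oeALKBH5 and 33.7%, 33.9% and 34.7% in control. Without CYP1A1 the sum was 154, 152 and 145 FPKM in oeALKBH5, below the 161 to 168 FPKM of every control library.

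Of the 35 tested genes 12 changed, 7 higher and 5 lower in oeALKBH5, by edgeR's quasi-likelihood test with Benjamini-Hochberg adjustment over all 14168 tested genes (adjusted p under 0.05). The 7 that rose were CYP1A1, CYP1B1, CYP2C8, CYP2J2, CYP4V2, CYP26B1 and CYP27B1. Those that fell were CYP2S1, CYP4F3, CYP27A1, CYP2R1 and CYP26A1. Across all genes 20.8% were called higher and 22.0% lower, or 42.8% in all. The members' shares were 20.0%, 14.3% and 34.3%, in this fit near the background for rises and lower for falls. The difference for falls rests on 5 genes, was not tested and did not hold with every scaling. The median log2 fold change was 0.06 over the tested members and 0.0062 over all tested genes. The median size of change, ignoring sign, was 0.30 for tested members and 0.19 for all tested genes. No tested member reached an absolute log2 fold change of 1. With library size alone as the scaling, all genes split into 4266 higher and 2047 lower, and P450 genes into 9 and 5. The members' share of falls was then near that of all genes.

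Libraries of the 2 groups did not overlap in CPM for 10 tested members higher in oeALKBH5 and for 6 lower, beside 25.8% and 27.0% of all tested genes. All 12 genes that passed were among these 16. The other 4 were CYP11A1, CYP2F1 and CYP24A1, higher, and CYP19A1, lower. On the authors' FPKM values, tested by limma on log2(FPKM + 1), 21 members could be tested. There 6 of the 21 were higher and 5 lower, beside 29.3% and 16.4% of all genes (45.7% in all). Falls were thus not scarcer among members on that scale. CYP2C8 and CYP27B1 were not tested on that scale because of their low FPKM, and CYP11A1 passed there (adjusted p = 0.0186).

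**Figure D2:**
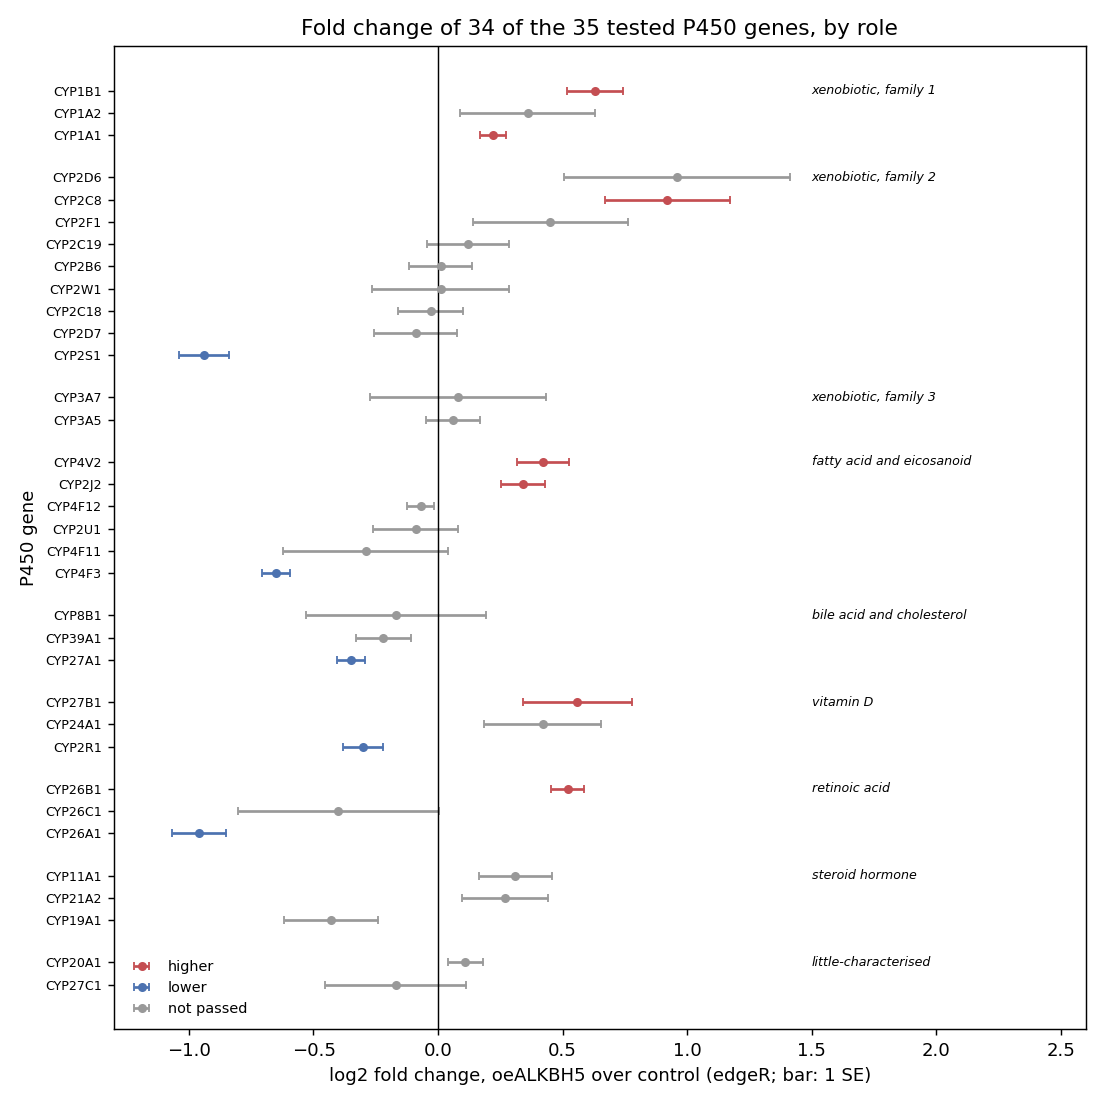
The log2 fold change (oeALKBH5 over control, edgeR) of 34 of the 35 tested P450 genes grouped by role, with a bar of 1 SE; red passed as higher, blue as lower, grey did not pass. The lowest value is that of CYP26A1 at -0.96, and no gene reaches 1 in size.

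Among the family 1 enzymes, which the aryl hydrocarbon receptor AHR induces and which oxidise polycyclic aromatic compounds, 2 of 3 rose. CYP1A1 lies on chromosome 15 at 74719542 to 74725610 (minus strand; GRCh38, GENCODE release 29, as for all gene positions below). It stood at 283, 251 and 245 CPM in oeALKBH5 and at 226, 216 and 225 CPM in control. Every oeALKBH5 library lay above every control, with replicate 1 highest. The gene was 1.17-fold higher (log2 fold change 0.22 with an SE of 0.0526, adjusted p = 0.00195). CYP1B1, which hydroxylates oestradiol as well as aromatic compounds, lies on chromosome 2 at 38066973 to 38109902 (minus strand). It stood at 9.10, 10.3 and 9.13 CPM in oeALKBH5 and at 6.77, 5.54 and 6.10 CPM in control, again with no overlap. Its rise was 1.55-fold (log2 fold change 0.63 with an SE of 0.113, adjusted p = 1.56e-04). Exons of CYP1B1 overlap RMDN2 and CYP1B1-AS1 on the opposite strand and RMDN2-AS1 on the same strand. RMDN2 itself did not pass (0.09, SE 0.141, adjusted p = 0.618), and the levels of the antisense genes are not given here. CYP1A2, the neighbour of CYP1A1, was at 0.36 (SE 0.271, adjusted p = 0.298) on few counts.

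AHR binds DNA with its partner ARNT at sites that share the core GCGTG. The core was searched on both strands in the 250 bases before each RefSeq start (GRCh38.p14), where 38 of the 52 genes had at least 1 window. The CYP1A1 window held it once, at positions -57 to -53 from the start. Bases farther upstream were not searched, so other cores near this gene are not shown. The 30 bases around it, at chr15:74725568-74725597 on the minus strand, are shown with the core in capitals because this is the most abundant member and one that rose:
CYP1A1: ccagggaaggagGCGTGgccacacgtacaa
The core is common, present in 32.2% of 35116 such windows of all genes and in 10 of the 51 member windows (19.6%). Among the 10 members that changed and had a window, CYP2J2 also held it; CYP1B1 and CYP27B1 were not searched. Of 9 AHR pathway genes other than P450s that were tested, 0 were called higher and 2 lower, beside 20.8% and 22.0% of all tested genes. NQO1, a quinone reductase, was at -0.45 (SE 0.0599, adjusted p = 1.26e-05) and the cochaperone PTGES3 at -0.31 (SE 0.0523, adjusted p = 8.19e-05). AHRR (-0.36), TIPARP (-0.09), UGT1A6 (0.2) and ALDH3A1 (0.3) did not pass. What part AHR has in the family 1 rises was not tested. AHR itself was at 0.09 (SE 0.0618, adjusted p = 0.254). It passed as higher without oeALKBH5 replicate 3 (adjusted p = 0.0112) and with library size alone as the scaling (adjusted p = 0.0421).

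Among the family 2 genes grouped here as drug and carcinogen oxidases, 1 of 10 tested rose and 1 fell. The family 2 members CYP2J2, CYP2R1 and CYP2U1 were grouped by other roles and are given below. CYP2C8, which oxidises paclitaxel and arachidonic acid, lies on chromosome 10 at 95036772 to 95069497 (minus strand). It stood at 2.29, 2.70 and 1.46 CPM in oeALKBH5 and at 1.24, 1.11 and 1.06 CPM in control. The groups did not overlap, but oeALKBH5 replicate 3 lay much nearer to the controls than the others. Its log2 fold change was 0.92 (SE 0.251, adjusted p = 0.00591), and 0.724 without oeALKBH5 replicate 2, where the call was lost (adjusted p = 0.0527). CYP2S1, an extrahepatic enzyme of epithelia, lies on chromosome 19 at 41193049 to 41207539 (plus strand). It stood at 29.4, 22.7 and 23.6 CPM in oeALKBH5 against 54.4, 46.5 and 44.3 CPM in control. It was 1.92-fold lower (log2 fold change -0.94 with an SE of 0.101, adjusted p = 1.88e-05), with every oeALKBH5 library below every control.

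CYP2B6, CYP2C18, CYP2C19, CYP2D7, CYP2F1 and CYP2W1 did not pass, with log2 fold changes from -0.09 to 0.45. CYP2D6 was at 0.96 with wide error (SE 0.455, adjusted p = 0.111). Its libraries held 1.77, 0.727 and 1.67 CPM in oeALKBH5 and 1.24, 0.264 and 0.637 CPM in control. Its log2 fold change was 0.56 without control replicate 2 and 1.61 without control replicate 1, where it passed (adjusted p = 0.0179), as it did without oeALKBH5 replicate 2 (1.27, adjusted p = 0.0246). The counts of CYP2D6 and its near copy CYP2D7 may be divided between them by the estimation. Summed, they reached 4.92 ± 1.15 CPM (SD, n = 3) in oeALKBH5 against 4.49 ± 0.278 CPM (SD, n = 3) in control, a difference within the spread of the libraries. In family 3, CYP3A5 was at 0.06 (SE 0.107, adjusted p = 0.690) and the fetal liver form CYP3A7 at 0.08 (SE 0.354, adjusted p = 0.875). CYP3A5 had a mean of 5.08 FPKM in control against 0.417 FPKM for CYP3A7.

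**Figure D3:**
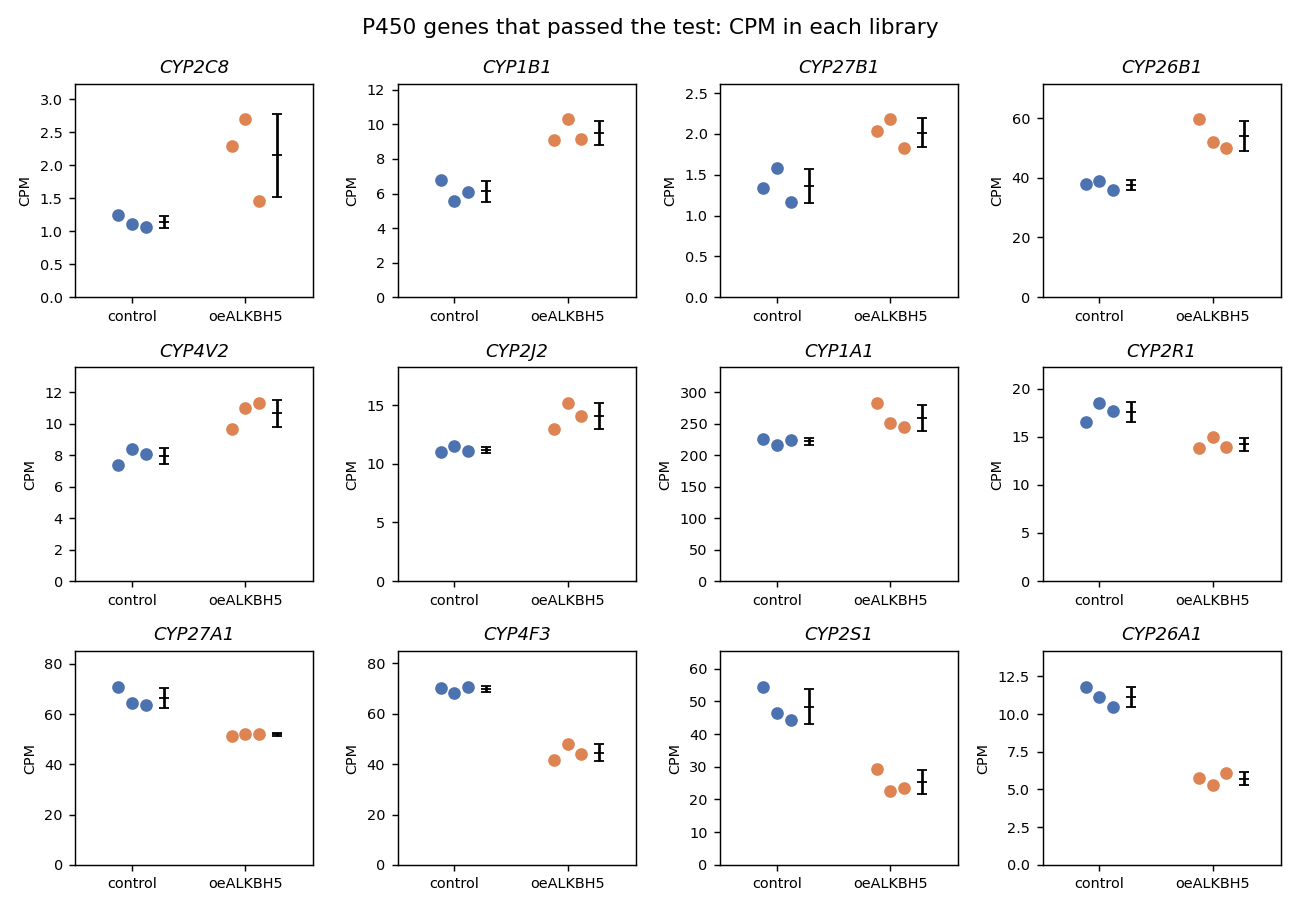
CPM in each library for the 12 P450 genes that passed, ordered from the highest to the lowest log2 fold change; points are libraries, and the black mark and bar are the mean and SD (n = 3). In each panel the 2 groups do not overlap, and CYP2C8 shows the widest relative spread in oeALKBH5.

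Enzymes of fatty acids and eicosanoids went both ways: of 6 tested, 2 rose and 1 fell. CYP4F3 hydroxylates the end carbon of leukotriene B4 and long-chain fatty acids, and lies on chromosome 19 at 15640897 to 15662825 (plus strand). It stood at 41.7, 48.1 and 44.0 CPM in oeALKBH5 and at 70.2, 68.4 and 70.7 CPM in control. The groups were well apart, at 1.56-fold lower (log2 fold change -0.65 with an SE of 0.0576, adjusted p = 3.02e-08). CYP4F2 is its close copy: 17.5% of the 50-base windows of the CYP4F2 transcript also occur in other members, most often in CYP4F3. With 9, 3 and 2 counts in oeALKBH5 and 10, 13 and 20 in control, CYP4F2 was not tested. It passed as lower in 4 of the 5 alternatives that kept it, and missed without oeALKBH5 replicate 2 (adjusted p = 0.0556). Both genes together reached 44.8 ± 3.09 CPM in oeALKBH5 against 70.5 ± 1.34 CPM in control (SD, n = 3 each).

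CYP4F12, the third most abundant member in FPKM, has its gene next to CYP4F3 and did not pass (log2 fold change -0.07 with an SE of 0.0542, adjusted p = 0.288). It stood at 54.1, 55.2 and 51.5 CPM in oeALKBH5 and at 58.0, 54.4 and 56.8 CPM in control, with overlap. CYP2J2, an arachidonic acid epoxygenase, lies on chromosome 1 at 59893308 to 59926790 (minus strand). Its libraries held 13, 15.2 and 14.1 CPM in oeALKBH5 and 11, 11.5 and 11.1 CPM in control. It rose 1.26-fold (log2 fold change 0.34 with an SE of 0.0889, adjusted p = 0.00456). CYP4V2, the fatty acid hydroxylase mutated in Bietti crystalline dystrophy, lies on chromosome 4 at 186191520 to 186213456 (plus strand). Its values were 9.67, 11 and 11.3 CPM in oeALKBH5 and 7.36, 8.39 and 8.07 CPM in control, without overlap. The rise was 1.34-fold (log2 fold change 0.42 with an SE of 0.104, adjusted p = 0.00272). Exons of CYP4V2 overlap KLKB1 on the same strand, and KLKB1 was at -0.03 (SE 0.254, adjusted p = 0.929). CYP2U1 and CYP4F11 did not pass (-0.09 and -0.29). Of 12 other arachidonate and epoxide enzymes tested, 2 rose and 3 fell, beside 20.8% and 22.0% of all tested genes. The epoxide hydrolases EPHX1 (-0.32) and EPHX2 (-0.35), which open epoxides, fell. The phospholipase PLA2G4A, which releases arachidonic acid, was at 0.64 and missed when control replicate 1 (adjusted p = 0.0547) or oeALKBH5 replicate 3 (adjusted p = 0.061) was left out. The prostaglandin E synthase PTGES2 was at 0.13 (adjusted p = 0.0394). It missed when oeALKBH5 replicate 1 (adjusted p = 0.0651) or 3 (adjusted p = 0.0559) or control replicate 2 (adjusted p = 0.192) or 3 (adjusted p = 0.0936) was left out, with no filter (adjusted p = 0.0565) and by DESeq2 (adjusted p = 0.07).

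Bile acid and cholesterol enzymes gave 1 fall among 3 tested. CYP27A1, the mitochondrial sterol 27-hydroxylase that opens the acidic bile acid pathway, lies on chromosome 2 at 218781749 to 218815293 (plus strand). It stood at 51.2, 52.2 and 52.2 CPM in oeALKBH5 and at 70.8, 64.3 and 63.6 CPM in control. The oeALKBH5 libraries were tightly grouped below all controls, 1.28-fold lower (log2 fold change -0.35 with an SE of 0.0552, adjusted p = 3.80e-05). CYP39A1, an oxysterol 7-alpha-hydroxylase, was at -0.22 (SE 0.111, adjusted p = 0.112). CYP8B1, which makes the cholic acid branch, was at -0.17 (SE 0.362, adjusted p = 0.732) on 9 to 19 counts a library. Of 14 other bile acid genes tested, 2 rose and 6 fell, beside 20.8% and 22.0% of all tested genes. The racemase AMACR was at -1.03 (SE 0.0616) and the acyl-CoA synthetase SLC27A2 at -0.85 (SE 0.0797). The conjugating enzyme BAAT was at 0.63 (SE 0.141) and the sterol dehydrogenase HSD3B7 at 0.27 (SE 0.0739).

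The vitamin D enzymes split. CYP2R1, the main hepatic 25-hydroxylase of vitamin D, lies on chromosome 11 at 14877440 to 14892252 (minus strand). It stood at 13.8, 15.0 and 13.9 CPM in oeALKBH5 and at 16.5, 18.5 and 17.7 CPM in control. It was 1.23-fold lower (log2 fold change -0.30 with an SE of 0.0809, adjusted p = 0.00492). CYP27B1, the 1-alpha-hydroxylase that makes the active hormone, lies on chromosome 12 at 57762334 to 57768986 (minus strand). Its libraries held 2.03, 2.18 and 1.83 CPM in oeALKBH5 and 1.34, 1.58 and 1.17 CPM in control. The groups did not overlap, and the log2 fold change of 0.56 (SE 0.219) passed narrowly (adjusted p = 0.0463). CYP27B1 missed when oeALKBH5 replicate 1 (adjusted p = 0.0806) or 2 (adjusted p = 0.138) or control replicate 1 (adjusted p = 0.108) or 3 (adjusted p = 0.166) was left out. It was lost as well with no filter (adjusted p = 0.0618) and by DESeq2 (adjusted p = 0.177). An exon of CYP27B1 overlaps METTL1 on the same strand, and METTL1 did not pass (adjusted p = 0.964). CYP24A1, which degrades vitamin D, was at 0.42 (SE 0.234, adjusted p = 0.157).

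All 6 vitamin D handling genes outside the family were lower, beside 22.0% of all tested genes. With library size alone as the scaling 5 were lower, beside 2047 of all 14168 tested genes. The plasma carrier GC was at -1.21 (SE 0.0602, adjusted p = 9.14e-11). DHCR7, which consumes the vitamin D precursor in cholesterol synthesis, was at -0.91 (SE 0.0479, adjusted p = 1.10e-11). The receptor VDR was also lower, at -0.55 (SE 0.115, adjusted p = 7.34e-04).

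The CYP26 enzymes, which clear retinoic acid, moved in opposite directions. CYP26A1 lies on chromosome 10 at 93073475 to 93077890 (plus strand). It stood at 5.77, 5.29 and 6.10 CPM in oeALKBH5 and at 11.8, 11.1 and 10.5 CPM in control. Each oeALKBH5 library was far below each control, 1.95-fold lower (log2 fold change -0.96 with an SE of 0.107, adjusted p = 6.37e-07). An exon of CYP26A1 overlaps AL358613.3, a processed transcript on the same strand, whose level is not given here. CYP26B1 lies on chromosome 2 at 72129238 to 72148038 (minus strand). It stood at 59.6, 52 and 50 CPM in oeALKBH5 and at 37.9, 38.9 and 35.9 CPM in control. It was 1.43-fold higher (log2 fold change 0.52 with an SE of 0.0663, adjusted p = 3.63e-06). In FPKM, CYP26B1 exceeded CYP26A1 by factors of 4.92, 4.75 and 3.92 in oeALKBH5 and of 1.56, 1.71 and 1.64 in control. The ratio was thus higher in every oeALKBH5 library. CYP26C1 was at -0.40 (SE 0.405, adjusted p = 0.447).

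Retinoic acid receptors bind paired sites. A single exact spelling with 5 spacer bases was searched: AGTTCA, any 5 bases and a second AGTTCA, on both strands of the same windows. Other spellings were not searched, so the counts and the missing matches below hold for these letters alone. Why these letters were chosen is not recorded, so neither the match nor its rarity singles out CYP26A1. It occurred in 3 of the 35116 windows (0.00854%) and in 1 of the 51 member windows, that of a CYP26A1 start, at positions -90 to -74. The site is printed because it belongs to the gene with the lowest fold change among the tested members. The 30 bases at chr10:93073797-93073826 (plus strand, GRCh38.p14, RefSeq) carry it in reverse orientation, in capitals:
CYP26A1: taaagaTGAACTTTGGGTGAACTaattgtc
No match to these letters lay in the CYP26B1 or CYP26C1 window. Among 12 retinoid handling genes outside the family that were tested, 0 rose and 5 fell, beside 20.8% and 22.0% of all tested genes. RDH10, which oxidises retinol on the way to retinoic acid, was at -0.80 (SE 0.0687, adjusted p = 1.89e-08). In 6 alternatives 1 of them rose: upper quartile scaling, library size alone, a filter at 1 CPM in 3 libraries, the replicate block, and the fits without control replicate 1 or without oeALKBH5 replicate 3.

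None of the 3 tested steroid hormone enzymes passed. CYP11A1, which cuts the cholesterol side chain, stood at 4.47, 4.05 and 4.59 CPM in oeALKBH5 and at 3.92, 3.38 and 3.24 CPM in control. Its groups did not overlap (log2 fold change 0.31 with an SE of 0.147, adjusted p = 0.0911), and it passed with library size alone (adjusted p = 0.0349). The aromatase CYP19A1 was at -0.43 (SE 0.189, adjusted p = 0.0702) and passed without oeALKBH5 replicate 1 (adjusted p = 0.0222). CYP21A2, the 21-hydroxylase, was at 0.27 (SE 0.173, adjusted p = 0.219). Of 14 other steroid genes tested, 1 rose and 5 fell, beside 20.8% and 22.0% of all tested genes. TSPO, an outer mitochondrial membrane protein, was at 0.68 (SE 0.116), and the dehydrogenases HSD17B7 and HSD17B12 were at -0.67 (SE 0.086) and -0.35 (SE 0.0532). CYP20A1 and CYP27C1, grouped here apart from the other roles, did not pass. CYP20A1 was at 0.11 (SE 0.0714, adjusted p = 0.212) and passed with library size alone (adjusted p = 0.0356), and CYP27C1 was at -0.17 (SE 0.284, adjusted p = 0.655).

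Many members sit in gene clusters. With members within 500 kb joined, 6 loci held at least 2 tested genes. On chromosome 10 CYP2C8 was at 0.92 while CYP2C19 (0.12) and CYP2C18 (-0.03) did not pass. Some of their sequence is shared among members, at 11.8% of 50-base windows for CYP2C19 and 2.72% for CYP2C8. On chromosome 19 CYP4F3 was at -0.65 beside CYP4F12 at -0.07. In the other chromosome 19 cluster CYP2S1 was at -0.94, CYP2B6 at 0.01 and CYP2F1 at 0.45. On chromosome 15 CYP11A1, CYP1A1 and CYP1A2 were all above 0, and only CYP1A1 passed. On chromosome 7 CYP3A5 (0.06) and CYP3A7 (0.08) were close to each other and neither passed. Whether neighbours differ from each other was not tested.

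**Figure D4:**
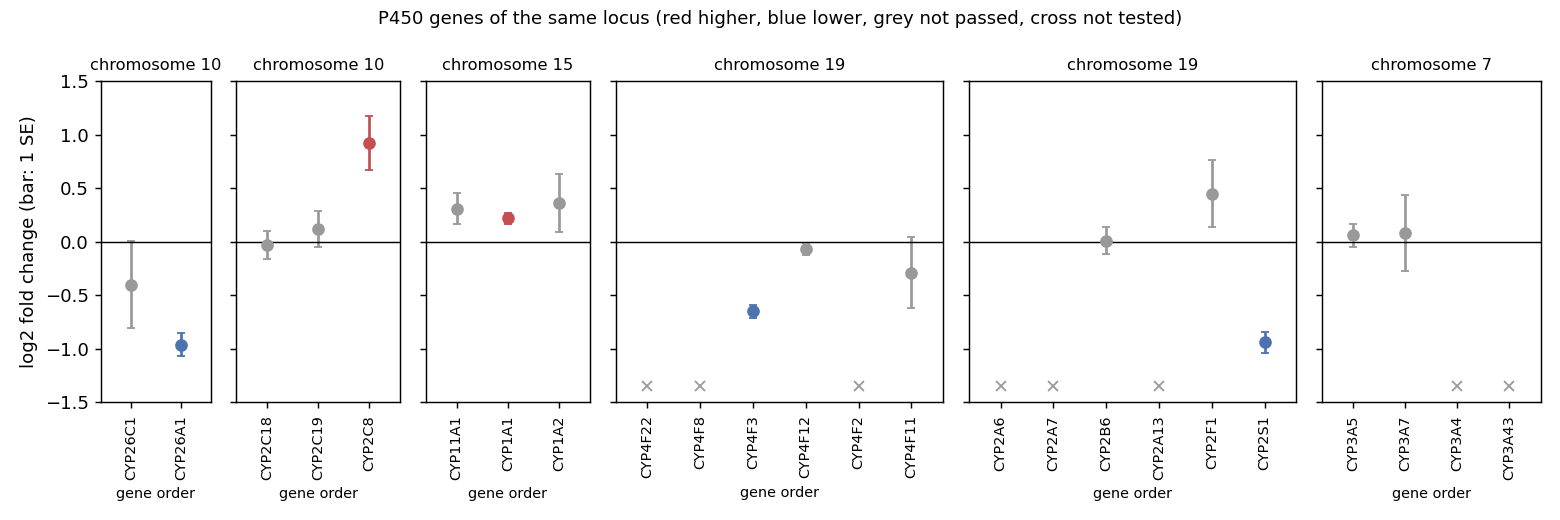
The log2 fold change (oeALKBH5 over control, bar of 1 SE) of P450 genes in the same locus (1 tested gene not shown), in gene order along the chromosome; red passed as higher, blue as lower, grey did not pass, and crosses mark members that were not tested. In 5 of the 6 loci a single gene passed, beside neighbours that did not: CYP26A1, CYP2C8, CYP1A1, CYP4F3 and CYP2S1.

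The deposited tables give values per RefSeq transcript, which show where a gene's level lies within its isoforms. The transcript NM_000784.4 held 89.5% to 96.7% of the FPKM of CYP27A1 in the 6 libraries. For CYP26A1 NM_000783.4 held 90.6% to 100% in oeALKBH5 and 80.2% to 88.8% in control. Its other transcript, NM_057157.2, went from 0.877 ± 0.283 FPKM in control to 0.17 ± 0.149 FPKM in oeALKBH5 (SD, n = 3 each). Both CYP26A1 transcripts were thus lower in each oeALKBH5 library than in any control. The CYP1A1 level was divided mainly between NM_001319217.2 (54.3% to 79.8%) and NM_000499.5 (19.7% to 43.7%), with shares that overlapped between groups. The remaining transcript, NM_001319216.2, held 1.87%, 2% and 2.23% in oeALKBH5 and 0.585%, 1.12% and 1.06% in control, without overlap. Of the 8 transcripts of CYP4F3, NM_000896.3 held 11.9%, 12.8% and 13% in oeALKBH5 and 9.16%, 3.31% and 5.93% in control, so its share was higher in each oeALKBH5 library. NM_001199208.2 (0% to 8.41% against 9.34% to 25.2%) and XM_017026815.1 (0% to 1.27% against 1.86% to 2.84%) had lower shares in oeALKBH5 without overlap, and the shares of the other 5 overlapped between groups. For CYP4V2, which rose, XM_017008037.1 held 17%, 0% and 28% in oeALKBH5 and 55.6%, 33.9% and 41.6% in control, without overlap. Its FPKM values overlapped between groups. Other members had such transcripts too, such as XM_011528207.2 of CYP4F12 (20.5% to 21.5% against 11.4% to 18.5%). These differences in share were not tested, and how often shares fail to overlap over all genes was not counted. Of the 4 transcripts of CYP2C8, NM_000770.3 ranged from 0% to 66.2% over the 6 libraries, so no isoform of it is described further.

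Of 22 electron transfer and heme genes tested, 3 rose and 9 fell, beside 20.8% and 22.0% of all tested genes. With library size alone 5 rose and 6 fell, beside 4266 and 2047 of all 14168 tested genes. Without control replicate 3, 5 fell. The mitochondrial outer membrane cytochrome b5, CYB5B, was at -0.45 (SE 0.0515, adjusted p = 8.32e-07). The ferredoxin FDX1, electron donor of mitochondrial P450s such as CYP27A1, was at -0.40 (SE 0.0742, adjusted p = 2.48e-04). CYB5R3, which reduces cytochrome b5, rose (0.23, SE 0.0504) as did CPOX of heme synthesis (0.21, SE 0.0556). POR, named for its role after its values were seen, stood at 164, 152 and 155 CPM in oeALKBH5 and at 176, 171 and 176 CPM in control (-0.15, SE 0.0463, adjusted p = 0.0125). Its call was lost with library size alone (adjusted p = 0.211), without control replicate 3 (adjusted p = 0.0593) and without oeALKBH5 replicate 2 (adjusted p = 0.0814).

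Among 20 transcription factors that control P450 genes, 5 rose and 7 fell, beside 20.8% and 22.0% of all tested genes. With library size alone 7 rose and 4 fell, beside 4266 and 2047 of all 14168 tested genes. Without oeALKBH5 replicate 2, 3 rose. The repressor NR0B2, which bile acids induce, was at -0.47 (SE 0.093, adjusted p = 4.12e-04). ONECUT1, a hepatocyte factor, was at 0.38 (SE 0.0754, adjusted p = 5.55e-04). The bile acid receptor NR1H4 was at 0.16 (SE 0.0467, adjusted p = 0.00761) and missed when oeALKBH5 replicate 2 was left out (adjusted p = 0.0549).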

How the data were processed

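For 80668 RefSeq transcripts the authors deposited estimated counts, not scaled between libraries, beside FPKM values. The genome build GRCh38.p13 and the tools RSEM 1.2.8, Bowtie2 2.2.5 and HISAT2 2.1.0 are named, per the submitters' processing notes; the sources used here give neither their roles nor any filter or use of strand. Such counts share out ambiguous reads by likelihood, so near copies are uncertain one by one, as are overlapping genes.

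Transcript values were summed by Entrez gene and counts rounded. Symbols matched 17881 of 18030 genes; the other 149 held 0.0264% of counts. Groups were compared in R 4.3.3 by edgeR 4.0.16, using TMM factors, filterByExpr at 10 counts and a robust quasi-likelihood fit of the group, two-sided, and Benjamini-Hochberg adjustment over 14168 genes. Each SE was derived from the log2 fold change and its F statistic. The deposited FPKM values went into limma 3.58.1 as log2(FPKM + 1), where 3 libraries reached 1 FPKM; the added 1 shrinks fold changes of low genes. DESeq2 1.42.0 and limma-voom were alternatives. Scripts were tested on simulated data. Figures used matplotlib 3.10.9.

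The members, the gene lists and the tests were chosen with earlier results of these data known. Members that passed, and the 5 most abundant in control, are given in full. From each other list up to 2 that rose and 2 that fell are named by p, and a few others, such as AHR, VDR and POR, for their role after their values were seen. Gene positions came from GENCODE release 29 (GRCh38), where 51 members matched a protein-coding gene and CYP2D7 did not. No protein sequence was used here. The values of 1 tested member and 1 gene of another list are not reported here; both are in the counts.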

Additional observations from a re-analysis of the deposited data

How the results depend on the processing

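With library size alone as the scaling, 2047 genes were lower against 3114, and the median log2 fold change of tested P450 genes was 0.138 against 0.0585. With no filter that median was -0.0172 over all 52 genes, so its sign changed once the genes below the filter were added. With stricter filters it stayed positive, at 0.089 (1 CPM in 3 libraries) and 0.0418 (mean count of at least 50). On log2(FPKM + 1), added for all genes after seeing the data, 1971 were lower. Counting as expressed only genes that reached 1 FPKM in 3 libraries gave 21 members against 35. Leaving out 1 library at a time gave 6 to 7 P450 genes higher, 5 to 7 lower and a median from 0.0336 to 0.0913.

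All 12 members that passed kept their sign in every alternative in which they were tested. Apart from CYP27B1 and CYP2C8, none of the 12 lost its call at an adjusted p under 0.05; CYP27B1 and CYP2C8 were not tested at a mean count of at least 50.

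Same-numbered libraries did not deviate together (correlations of -0.00103, 0.0203 and -0.000151), and 2 of 6 libraries correlated best with their own number. With the replicate block 13 P450 genes passed against 12, the added one being CYP2D6 (adjusted p = 0.015), and ALKBH5 missed (adjusted p = 0.0538). Depth limits the 7 tested members with a control mean under 1 CPM, whose SEs ran from 0.271 to 0.455.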
